A study of Homo sapiens with 8 samples.

Results

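The sgRNAs described here are the 14 that were placed around the start site of *GFI1B* on chromosome 9, of 91 targeting sgRNAs in the library and 25 aimed at *GFI1B*. They are all sgRNAs of *GFI1B* in the design classes TSS (2 sgRNAs) and Tiling (12 sgRNAs), a choice by design class, with no measured value in the rule. Each was read in the same human erythroleukaemia line, K562, carrying 1 of 2 effectors. The CRISPRi line expressed a catalytically dead Cas9 (dCas9) joined to repressor domains, and the CRISPRa line expressed dCas9-VPR, the same protein joined to activator domains, and was grown from a single cell. Both lines were transduced with the same lentiviral library, kept in blasticidin (5 µg/mL) and puromycin (2 µg/mL), and collected on day 8. All cells, the controls included, thus carried dCas9 and an sgRNA, and each line was 1 culture. The 8 sequencing records (4 of cDNA, 2 of sgRNA tags and 2 of hashing tags) covered both lines pooled in 2 lanes of 10X 5′ single-cell chemistry, so an sgRNA had 1 fold change per line and no replicate.

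GFI1B is a zinc finger repressor of red cell and platelet development. Its SNAG domain recruits the histone demethylase LSD1 with CoREST, and it is known to bind and repress its own promoter. A dCas9 repressor is usually most effective close to and just downstream of a transcription start, where it deposits repressive chromatin and stands in the way of the polymerase. An activator such as VPR is usually placed upstream of the start, where it recruits the transcription machinery.

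The target sites that the results turn on are printed here, each 5′ to 3′ on its own strand in hg38, with the protospacer in lower case and the PAM read from the genome in capitals. GFI1B_12 is the farthest upstream, GFI1B_4 and GFI1B_5 flank the largest step in the tiled region, GFI1B_6 lies just before the canonical start, GFI1B_13 and GFI1B_14 are the TSS sgRNAs, and GFI1B_8 and GFI1B_11 lie in intron 1.
GFI1B_12: ggatgggacgccctgccaaaTGG
GFI1B_4: agagaaattcagaatttcgcTGG
GFI1B_5: cgtgccgctccaagtgtcgaGGG
GFI1B_6: gcagccaatgaagagagcgcGGG
GFI1B_13: gagtcacacagttgacagagTGG
GFI1B_14: ggttctgccggagcttcccgAGG
GFI1B_8: ctagcacagtggctcagacgAGG
GFI1B_11: agtgagactctggagcgcagTGG
All 14 protospacers matched hg38 at the deposited coordinates, and each occurred there as its only exact match with an NGG PAM.

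The 14 protospacers spanned 1607 bp, from the start of GFI1B_12 at chromosome 9, 132977695, to the end of GFI1B_11 at 132979301. None overlapped a neighbour, and the gaps between them ran from 11 to 308 bp with a median of 72. Of the 14, 5 were on the plus strand, which is also the coding strand of *GFI1B*, and 9 on the minus strand. Distances below run from the protospacer's centre to the deposited start at 132978809 and are positive downstream.

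*GFI1B* has more than 1 start in GENCODE 44, and the deposited start matches none of them exactly. The canonical transcript GFI1B-202 begins at 132978694, 115 bp upstream of the deposited start, with exon 1 from 132978694 to 132978841. Its start carries the CAGE support tag, as do those of GFI1B-207 at 132978651 and GFI1B-203 at 132978711, and each of these 3 starts divides the sgRNAs into the same 7 upstream and 7 downstream. The coding transcript GFI1B-201 begins far upstream at 132945551, so all 14 sgRNAs lie inside it. They are 32153.5 to 33740.5 bp downstream of its start, and its exon 5 (132978507 to 132978841) covers the canonical exon 1 and extends upstream of it. The coding transcript GFI1B-208 begins at 132986679, downstream of all 14 sgRNAs, and 10 of the 46 capture baits of *GFI1B* matched it. By the canonical transcript, GFI1B_12, GFI1B_1, GFI1B_2, GFI1B_3, GFI1B_4, GFI1B_5 and GFI1B_6 were upstream of the gene, GFI1B_13 and GFI1B_14 were in the 5′ UTR of exon 1, and GFI1B_7, GFI1B_8, GFI1B_9, GFI1B_10 and GFI1B_11 were in intron 1. GFI1B_5 and GFI1B_6 were also in the 5′ UTR part of exon 5 of GFI1B-201. The measured *GFI1B* level does not separate the starts. Of the 46 capture baits of *GFI1B*, 14 matched transcripts that begin in the tiled region, the same 14 also matched a transcript with a start upstream, and 31 matched only transcripts with a start upstream.

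The value given for each sgRNA is the deposited log2(FC) of *GFI1B* between cells with that sgRNA and non-targeting control (NTC) cells of the same line, of which there were 536 in CRISPRi and 323 in CRISPRa. A percentage of the NTC level is 2 raised to that value, and it understates the change because a constant was added before the logarithm. The spread to expect without targeting *GFI1B* was read from the 20 sgRNAs aimed at *TET2*. Over these, the log2(FC) of *GFI1B* was −0.031 ± 0.055 (SD, n = 20) in CRISPRi, from −0.11 to 0.061. In CRISPRa it was 0.023 ± 0.082 (SD, n = 20), from −0.15 to 0.18. The spread over all *MYB*, *NFE2* and *TET2* sgRNAs depended on the number of cells in CRISPRa, with an SD of 0.10 for the 5 sgRNAs with fewer than 40 cells and 0.045 for the 26 with at least 100.

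In CRISPRi, all 14 promoter sgRNAs gave a *GFI1B* log2(FC) below 0, with a mean of −0.84 ± 0.52 (SD, n = 14), a median of −1.09 and a range from −1.42 to −0.039. For 13 of the 14 the value was lower than with every *TET2* sgRNA, while the same was true of 3 of the 46 *MYB* and *NFE2* sgRNAs (6.52%). The exception was GFI1B_4. In CRISPRa the mean was 0.13 ± 0.17 (SD, n = 14), from −0.079 to 0.49, and 5 of the 14 sgRNAs were higher than every *TET2* sgRNA, against 0 of 45 *MYB* and *NFE2* sgRNAs (0%). None of the 14 was below the *TET2* range in CRISPRa.

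In CRISPRi, the 4 sgRNAs farthest upstream gave values below the *TET2* range and above those of all 9 sgRNAs from GFI1B_5 on. GFI1B_12, 1104.5 bp upstream, gave −0.13 in 151 cells, just under the lowest *TET2* value but not under the lowest *MYB* one (−0.15). GFI1B_1, 776.5 bp upstream, gave −0.19 in 30 cells. GFI1B_2, 712.5 bp upstream, gave −0.24 in 86 cells. These 3 values differ from each other by less than 2 SDs of a difference between *TET2* sgRNAs, which is 0.15. GFI1B_3, 441.5 bp upstream, gave −0.40, but in only 11 cells, the fewest of the set. In CRISPRa the same sgRNAs gave 0.20 for GFI1B_12 (92 cells), 0.20 for GFI1B_1 (31 cells), 0.15 for GFI1B_2 (147 cells) and −0.079 for GFI1B_3 (17 cells). GFI1B_12 and GFI1B_1 thus lay just above the highest *TET2* value of 0.18 in CRISPRa, by less than 1 SD of that reference. GFI1B_2 has the lowest specificity score of the 14, 41.8, with 430 predicted off-target sites.

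GFI1B_4, 316.5 bp upstream on the minus strand, lay within the *TET2* range in both lines, at −0.039 in CRISPRi (84 cells) and −0.051 in CRISPRa (76 cells). GFI1B_5 begins only 12 bp after the end of the GFI1B_4 protospacer and lies on the opposite strand, 284.5 bp upstream. It gave −0.87 in CRISPRi (104 cells) and 0.49 in CRISPRa (92 cells), the highest CRISPRa value of the set. From GFI1B_4 to GFI1B_5 the log2(FC) changed by −0.83 in CRISPRi and by 0.54 in CRISPRa. These were the largest of the 13 differences between neighbours in either line, and both groups of cells were well filled. In the predicted on-target score the 2 also differed, at 0.129 for GFI1B_4, the lowest of the 14, and 0.422 for GFI1B_5. The GC content of the protospacer was 35% for GFI1B_4, again the lowest, and 65% for GFI1B_5. Their specificity scores were 76.0 and 97.9. The sgRNAs with the next lowest on-target scores, GFI1B_7 (0.131), GFI1B_9 (0.136) and GFI1B_13 (0.146), gave −1.04, −1.27 and −1.14 in CRISPRi, while GFI1B_3 (0.250) and GFI1B_2 (0.260) gave −0.40 and −0.24. The part of these properties in the step was not tested.

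From GFI1B_5 on, every sgRNA gave a value far below the *TET2* range in CRISPRi. GFI1B_6, 195.5 bp upstream of the deposited start and 80.5 bp upstream of the canonical one, gave −1.15 in 102 cells. The TSS sgRNA GFI1B_13 (60.5 bp upstream) gave −1.14 in 66 cells, and the other, GFI1B_14 (1.5 bp upstream), −1.35 in 48 cells. The 5 intronic sgRNAs gave values from −1.42 to −1.04, a range that took in both TSS sgRNAs. The step from GFI1B_7 to GFI1B_8, −0.38, was larger than 2 SDs of a difference between *TET2* sgRNAs (0.15). GFI1B_7 (90.5 bp downstream) gave −1.04 in 96 cells. GFI1B_8 (215.5 bp) gave −1.42 in 51 cells and GFI1B_9 (246.5 bp) −1.27 in 46 cells. GFI1B_10 (397.5 bp) gave −1.21 in 66 cells and GFI1B_11 (482.5 bp) −1.31 in 85 cells. The reduction thus had not weakened at the downstream end of the tiled region, whereas it was near the *TET2* spread at the upstream end. GFI1B_8, the lowest, left 37.3% of the NTC level, or 24.1% if the deposited values are natural logarithms, as the formula in the study's methods reads. The fold range that the paper states for *GFI1B*, however, treats the values as log2.

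In CRISPRa the 3 highest values were those of GFI1B_5, GFI1B_6 and GFI1B_13, on either side of the canonical start. In order along the gene, GFI1B_5 gave 0.49, GFI1B_6 0.40 (80 cells), GFI1B_13 0.30 (106 cells), GFI1B_14 0.17 (43 cells) and GFI1B_7 −0.010 (104 cells). Each step of that series was smaller than 2 SDs of a difference between *TET2* sgRNAs in CRISPRa, 0.23, but its ends were far apart. The remaining intronic sgRNAs gave 0.011 for GFI1B_8 (47 cells), 0.12 for GFI1B_9 (60 cells), −0.033 for GFI1B_10 (115 cells) and 0.021 for GFI1B_11 (117 cells), all inside the *TET2* range. GFI1B_5 reached 141% of the NTC level, or 164% if the values are natural logarithms.

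Across the 14 sgRNAs, the values of the 2 lines were almost unrelated (Pearson's r = −0.079, Spearman's rho = 0.020). The position along the gene had r = −0.86 and rho = −0.84 with the CRISPRi value, and r = −0.80 without the 2 sgRNAs farthest from the median position. The absolute distance was a poorer description, with r = 0.70 from the deposited start and 0.46 from the canonical one, or 0.54 and 0.11 without 2 sgRNAs. In CRISPRa the position had r = −0.28 and rho = −0.28. The sgRNAs share a culture and the NTC cells, and their positions are those of a single promoter, so these coefficients describe the set only. Over all 14, the other sgRNA properties had coefficients nearer 0 with the CRISPRi values, at r = −0.47 (rho = −0.53) for the on-target score, −0.12 for the specificity score, −0.38 for the GC content of the protospacer (35% to 70%) and 0.16 for the number of cells. The number of CpG dinucleotides in the 200 bp around each site had r = −0.56 in CRISPRi and 0.34 in CRISPRa, and it ranged from 1 at GFI1B_3 to 9 at GFI1B_14. Without the 2 sgRNAs farthest from the median of each property, r in CRISPRi turned to 0.18 for the GC content and was −0.76 for the CpG number and −0.39 for the on-target score, while r in CRISPRa was 0.020 for the CpG number. For the GC content of the 200 bp around each site, r in CRISPRi was −0.11 over all 14 and 0.53 without 2 sgRNAs. In CRISPRa, the position was not the property with the coefficient farthest from 0, as r was −0.37 for the number of predicted off-target sites, 0.36 for the GC content of the protospacer and 0.34 for the specificity score. Without 2 sgRNAs these became −0.46, −0.13 and 0.48, so the sign for the GC content turned. The absolute distance had r = −0.042 in CRISPRa from the deposited start and −0.22 from the canonical one. Without 2 sgRNAs these were −0.26 and −0.50.

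Neighbouring sgRNAs gave more similar values than sgRNAs at large. In CRISPRi the 13 neighbouring pairs differed by a mean of 0.23, against 0.59 over all 91 pairs, and in CRISPRa by 0.13 against 0.20. Even so, 7 of the 13 neighbouring pairs in CRISPRi differed by more than 2 SDs of a difference between *TET2* sgRNAs. In CRISPRa this was the case of 1 pair, GFI1B_4 with GFI1B_5. GFI1B_8 and GFI1B_9, which lie 11 bp apart on the same strand, differed by 0.16 in CRISPRi and by 0.11 in CRISPRa.

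The sides of the start were compared over the sgRNAs, with p-values adjusted over the 2 lines by Benjamini-Hochberg. These tests treat the sgRNAs as interchangeable, although neighbours gave similar values, so their p-values are too small and do not tell the start apart from another point along the same gradient. Against the deposited start, the mean in CRISPRi was −1.25 ± 0.14 (SD) for the 5 sgRNAs downstream and −0.61 ± 0.51 for the 9 upstream. The difference of −0.64 had an exact permutation p of 0.0280, or 0.0559 after adjustment, which missed the threshold of 0.05. It passed when GFI1B_3, GFI1B_4, GFI1B_6, GFI1B_13, GFI1B_14 or GFI1B_7 was left out (lowest adjusted p = 0.0186, exact permutation test). The 2 groups overlapped, because the upstream sgRNAs GFI1B_6, GFI1B_13 and GFI1B_14 lay within the range of the downstream ones. Against the canonical start, which moves GFI1B_13 and GFI1B_14 to the downstream side, the means were −1.25 ± 0.13 for 7 sgRNAs and −0.43 ± 0.42 for 7. That difference was −0.82 (exact permutation test, adjusted p = 0.00350), and GFI1B_6 was then the only upstream sgRNA inside the downstream range. Every downstream sgRNA was below every *TET2* value by either start.

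In CRISPRa the side went the same way on the log2 scale, with lower values downstream. A lower value is a stronger reduction in CRISPRi but a weaker increase in CRISPRa. The 5 downstream sgRNAs had a mean of 0.022 ± 0.060 (SD) and the 9 upstream 0.20 ± 0.19, a difference of −0.17 that missed the threshold (exact permutation test, adjusted p = 0.0689) but passed without GFI1B_3 or without GFI1B_4 (lowest adjusted p = 0.0319). Against the canonical start the difference was −0.10 (exact permutation test, adjusted p = 0.282). Of the 5 sgRNAs above the *TET2* range, none was downstream of the deposited start and GFI1B_13 alone was downstream of the canonical one. To ask whether the log2 shift with the side differed between the 2 lines, the difference between the lines was taken for each sgRNA, a test added after the values were seen. It was 1.27 ± 0.16 (SD) downstream and 0.81 ± 0.64 upstream, and the gap of 0.46 missed the threshold (exact permutation test, adjusted p = 0.259). The test concerns the log2 shift only, so its miss does not show that repression and activation depended on the side alike.

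The strand showed no difference past the threshold. In CRISPRi the 5 sgRNAs on the plus strand had a mean of −0.74 ± 0.53 (SD) and the 9 on the minus strand −0.90 ± 0.53 (exact permutation test, adjusted p = 0.592). In CRISPRa the means were 0.23 ± 0.18 and 0.081 ± 0.16 (exact permutation test, adjusted p = 0.240), a difference of 0.15. Of the 14 sgRNAs left out in turn, it passed only without GFI1B_6 (exact permutation test, adjusted p = 0.0482). It ranged from 0.086 without GFI1B_5 to 0.20 without GFI1B_11. The CRISPRi difference ranged from 0.0057 without GFI1B_12 to 0.30 without GFI1B_11. Among the sgRNAs within 300 bp of the deposited start, the plus minus minus difference was larger, at 0.24 in CRISPRi and 0.26 in CRISPRa. It still missed the threshold (exact permutation test, adjusted p = 0.143 for each). The plus strand held only GFI1B_5 and GFI1B_13 there, so few splits were possible and the miss decides little. All 5 plus-strand sgRNAs and 5 of the 9 minus-strand sgRNAs were above 0 in CRISPRa. Strand and position were not balanced, since 4 of the 5 sgRNAs downstream of the deposited start were on the minus strand.

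Only 2 short motifs, GATAAG and CCAAT, were looked for on both strands of the tiled region, as letters only. A GATAAG, the core of sites bound by GATA factors, stood on the plus strand from 132978579 to 132978584, 115 bp upstream of the canonical start and between GFI1B_5 and GFI1B_6. It overlapped no protospacer. A CCAAT, the core of the CCAAT box bound by NF-Y, stood on the minus strand from 132978615 to 132978619, within the protospacer of GFI1B_6, where the letters can be read in the sequence printed above. The 2 motifs do not overlap. In RefSeq (GRCh38.p14), *GFI1B* has 300-bp promoter windows from 132945281 to 132945580 and from 132978444 to 132978743, and both motifs are in the latter only. Of all 35116 such windows, 6.36% hold GATAAG and 34.6% CCAAT on either strand.

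The promoters of *MYB*, *NFE2* and *TET2* were tiled by the same design, with 15 sgRNAs each. In CRISPRi, the mean log2(FC) of the targeted gene was −0.84 for *GFI1B* against −0.40 ± 0.40 (SD) for *MYB*, −0.29 ± 0.054 for *NFE2* and −0.28 ± 0.13 for *TET2*. Over the sgRNAs, all 3 differences passed on the log2 scale (permutation test, p adjusted over 6 comparisons 0.0348 for *MYB*, 0.00144 for *NFE2* and 0.00144 for *TET2*), but each gene is a single promoter in a single culture, so the test compares these sets of sgRNAs and not the genes. On the linear scale the difference from *MYB*, −18.9 percentage points, missed the threshold (adjusted p = 0.0516, permutation test). On the log2 scale it also missed when GFI1B_6, GFI1B_13, GFI1B_14, GFI1B_7, GFI1B_8, GFI1B_9, GFI1B_10 or GFI1B_11 was left out (highest adjusted p = 0.0617, permutation test). A log2(FC) below −1 was given by 8 of the 14 *GFI1B* sgRNAs and by 0 of the 15 for each other gene. The spread within *GFI1B*, with an SD of 0.52, was also the widest of the 4 genes, as the weak upstream sgRNAs were among the 14. In CRISPRa the means were 0.034 for *MYB* (15 sgRNAs), 0.13 for *NFE2* (14 sgRNAs) and 0.29 for *TET2* (15 sgRNAs), and no difference from the 0.13 of *GFI1B* passed (permutation test, adjusted p = 0.0993, 0.908 and 0.112). The added constant weighs more on a gene with a low level, so folds of different genes are not on quite the same scale. Away from the promoter, the 6 enhancer sgRNAs of *GFI1B* gave −0.51 to 0.048 in CRISPRi and 0.12 to 0.51 in CRISPRa. Its 5 attenuated sgRNAs, which target the site of GFI1B_14 with a mismatch, gave −1.83 to −0.026 in CRISPRi and −0.12 to 0.39 in CRISPRa.

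The other genes of the panel give a readout that the choice of sgRNAs did not use, although it comes from the same cells and is set against the same NTC cells. The panel of 92 genes was itself assembled largely from genes that had responded to inhibition of *GFI1B* or *NFE2* in earlier work, so many of them were selected to move. Among 90 of them (all but *GFI1B* and *TET2*), GFI1B_4 put 0 genes outside their range over the *TET2* sgRNAs in CRISPRi, and its neighbour GFI1B_5 put 45 outside. The mean absolute log2(FC) over these genes was 0.037 with GFI1B_4 and 0.17 with GFI1B_5, against 0.032 to 0.067 with the 20 *TET2* sgRNAs. The step seen in *GFI1B* was thus present in the rest of the panel. With the sgRNAs farther upstream, 9 genes were outside for GFI1B_12, 23 for GFI1B_1, 30 for GFI1B_2 and 47 for GFI1B_3, the last with only 11 cells, and from GFI1B_6 to GFI1B_11 the number stayed between 50 and 57. An sgRNA without any effect can also put genes outside a range set by 20 sgRNAs. How many was not counted, so a small count such as that of GFI1B_12 need not be an effect. Over all 1260 values of the 14 sgRNAs and 90 genes, 45.9% were outside in CRISPRi and 23.2% in CRISPRa.

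The genes that followed *GFI1B* most closely over the 14 sgRNAs in CRISPRi were *SLC25A37*, the mitochondrial iron importer mitoferrin (Pearson's r = 0.96), *TUBB1*, the platelet β-tubulin (0.94), and *NUDT4*, a hydrolase of inositol polyphosphates (0.94). The most opposed were *DAPK1*, a death-associated kinase (−0.96), *BHLHE40*, a helix-loop-helix repressor (−0.94), and *PKM*, the glycolytic pyruvate kinase (−0.92). These 6 were chosen for that r. In CRISPRa, which the choice did not use, they had r with *GFI1B* of 0.91, 0.76, 0.87, −0.88, −0.93 and −0.92 in the same order. *TUBB1* ran from −0.93 with GFI1B_8 to −0.052 with GFI1B_4 in CRISPRi, and 12 of the 14 values were below the *TET2* range. *DAPK1* ran from 0.15 with GFI1B_4 to 0.92 with GFI1B_8, and 13 of 14 were above that range.

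Of the lineage factors, *SPI1*, which encodes the myeloid factor PU.1, was above the *TET2* range with 13 of the 14 sgRNAs in CRISPRi, at a median of 1.00, and GFI1B_4 at 0.0017 was the exception. *NFIA*, a factor of erythroid commitment, was above it with 7, at a median of 0.23. *GATA2*, a stem and progenitor cell factor, was below it with 3, at a median of 0.022. In CRISPRa, *SPI1* was below the range with 3 sgRNAs and above with 1, *NFIA* with 5 and 1, and *GATA2* with 3 and 0. The lowest value of each in CRISPRa was with GFI1B_5, at −0.66, −0.93 and −0.51. Over the other genes of the panel together, 45.9% of values were outside their *TET2* range in CRISPRi and 23.2% in CRISPRa. A count of sgRNAs near or below that share, here or for the genes named below, does not set a gene apart from the panel. *NFIA* with 7 of 14 in CRISPRi was near it, and *GATA2* with 3 of 14 was below it in both lines.

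Of the red cell genes in CRISPRi, *SLC25A37* was below the range with 10 sgRNAs at a median of −0.12, *HBZ*, the embryonic ζ-globin, with 10 at −0.15, and *CA1*, a red cell carbonic anhydrase, with 9 at −0.67. *ALAS2*, the erythroid enzyme that begins heme synthesis, was within it with all 14, at a median of 0.015. In CRISPRa, GFI1B_5 gave the highest value of all 4, at 0.27 for *SLC25A37*, 0.40 for *HBZ*, 0.58 for *CA1* and 0.74 for *ALAS2*. In that line *SLC25A37* was above the range with 4 sgRNAs and below with 1, *HBZ* above with 3 and below with 0, *CA1* above with 2 and below with 2, and *ALAS2* above with 3 and below with 2.

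Of the platelet genes beside *TUBB1*, *ANKRD26*, a gene linked to inherited thrombocytopenia, was above the range with 11 sgRNAs in CRISPRi, at a median of 0.23, and below it with 4 in CRISPRa. *SRGN*, the granule proteoglycan serglycin, was below it with 1 sgRNA in CRISPRi, and below with 1 and above with 1 in CRISPRa. Of the other targeted genes, *MYB*, a factor of immature blood cells, was above the range with 10 sgRNAs in CRISPRi, at a median of 0.25. In CRISPRa it was below with 8, down to −0.95 with GFI1B_5. *NFE2*, a factor of platelet and globin genes, was above with 1 sgRNA in CRISPRi and below with 1 in CRISPRa. *TET2*, a DNA demethylase, set against the *NFE2* sgRNAs, was below with 1 and above with 3 in CRISPRi, and below with 4 and above with 1 in CRISPRa.

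The control gene *GAPDH*, a highly expressed glycolytic gene, stayed between −0.011 and 0.014 in CRISPRi and between −0.067 and 0.020 in CRISPRa, where its lowest value was again with GFI1B_5. It was outside the *TET2* range with 1 sgRNA in CRISPRi, and below it with 2 and above it with 2 in CRISPRa, where that range ran only from −0.030 to 0.014. A control gene thus also fell outside its range in CRISPRa, as did 23.2% of the values over the panel. *LHX3*, a gene with little or no expression in K562, had a single value of −0.015 with all 14 sgRNAs in CRISPRi. In CRISPRa its highest value was 0.028, with GFI1B_5.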

How the data were processed

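K562 cells of both lines were pooled and read by 5′ single-cell sequencing with sgRNA and hashing tags and a targeted cDNA panel. According to the submitters' notes and the study's methods, the reads were processed with Cell Ranger (GRCh38), alevin and Seurat, for which the submitters' notes list no versions. For doublets, the methods describe that cells with more than 1 sgRNA and those with the most UMIs were left out. The authors assigned cells to a line by hashing tags and dCas9 transcripts. Single cells were not analysed here. Both lanes were merged. The authors deposited 1 log2 fold change per sgRNA, line and gene, made with Seurat's FindMarkers as the difference of mean normalized expression from NTC cells. The methods write it with a natural logarithm, but the column is named log2 and the fold range stated in the paper for *GFI1B* treats it as log2. It was taken here as log2. These values are the measurement used, the deposited p-values and calls were not used, and depth per cell is unknown. The deposited score columns (on-target, specificity) came from FlashFry.

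Positions were matched to hg38 and GENCODE 44 and promoters to RefSeq. Means over sgRNAs were compared by exact permutation of all splits, which were 2002 for 5 against 9 sgRNAs. Settings with other group sizes had other numbers of splits. Means between genes were compared by 100000 random permutations, and both tests were two-sided. They were run in Python 3.11.15 (numpy 2.4.6, pandas 2.3.3), with correlations from scipy 1.17.1. Both tests were checked on simulated data. As each line was 1 culture, p-values measure only the spread between sgRNAs. The alternatives were at least 30 cells, leaving out each sgRNA, Tiling sgRNAs only, the linear scale, other references and centring, the canonical start, and sgRNAs within 300 bp. The genes named were a fixed list of blood genes, 2 controls, and the 3 highest and 3 lowest r with *GFI1B* in CRISPRi. The members and lists were chosen with earlier results of these data known.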

Additional observations from a re-analysis of the deposited data

How the results depend on the processing

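No paired analysis was possible because the replicate numbers belong to sequencing records, and the table pools these into 1 value per sgRNA and line. The 2 lines were compared within each sgRNA, as given above. With at least 30 cells, the downstream minus upstream difference passed in both lines, at −0.61 in CRISPRi and −0.21 in CRISPRa (exact permutation test, adjusted p = 0.0319 for each), and the *GFI1B* minus *MYB* difference in CRISPRa passed at 0.12 (adjusted p = 0.0492, permutation test). The filter removes GFI1B_3. With Tiling sgRNAs only, the side passed in CRISPRi at −0.82, the mean in CRISPRi became −0.77, and *GFI1B* minus *NFE2* in CRISPRa turned to −0.0045. By the canonical start the side passed in CRISPRi at −0.82. On the linear scale the CRISPRi mean was 59.4% of the NTC level, and *GFI1B* minus *MYB* in CRISPRi, −18.9 percentage points, missed the threshold (adjusted p = 0.0516, permutation test). With each of the 14 sgRNAs left out, the side ranged from −0.73 to −0.57 in CRISPRi and from −0.21 to −0.14 in CRISPRa. The strand ranged from 0.0057 to 0.30 and from 0.086 to 0.20. The mean ranged from −0.90 to −0.80 in CRISPRi and from 0.11 to 0.15 in CRISPRa, and the sgRNAs outside the *TET2* range from 12 to 13 and from 4 to 5. *GFI1B* minus *MYB* ranged from −0.50 to −0.39 and from 0.073 to 0.12, minus *NFE2* from −0.62 to −0.51 and from −0.021 to 0.023, and minus *TET2* from −0.62 to −0.52 and from −0.18 to −0.14. Without GFI1B_5, GFI1B_6 or GFI1B_13, *GFI1B* minus *NFE2* in CRISPRa turned below 0, and without GFI1B_3 *GFI1B* minus *MYB* in CRISPRa passed. With 1 sgRNA left out, the side passed for 6 of the 14 in CRISPRi and 2 in CRISPRa, the strand passed for 1 in CRISPRa, and *GFI1B* minus *MYB* in CRISPRi missed the threshold for 8, as named above. With the *MYB*, *NFE2* and *TET2* sgRNAs together as the reference, 12 and not 13 sgRNAs were outside it in CRISPRi, and centring changed neither count. In CRISPRi the fewest cells behind a value were 11 and in CRISPRa 17, and depth per cell is unknown.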

Other observations

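Over the 14 sgRNAs, the mean absolute log2(FC) of the 90 other genes had a Pearson's r with the *GFI1B* log2(FC) of −0.94 in CRISPRi and 0.86 in CRISPRa, both measured in the same cells. In CRISPRa, the number of other genes outside their *TET2* range did not follow the *GFI1B* value for every sgRNA. GFI1B_14, with a *GFI1B* log2(FC) of 0.17 inside the *TET2* range, put 31 of 90 genes outside in 43 cells, with *TUBB1* at 0.72 and *DAPK1* at −0.55. GFI1B_13, at 0.30 in 106 cells, put 34 outside. GFI1B_7, with the next position downstream, put 0 outside at −0.010 in 104 cells. GFI1B_1 put 33 genes outside at 0.20 in 31 cells, GFI1B_12 put 21 outside at 0.20 in 92 cells, and GFI1B_3 put 28 outside at −0.079 in 17 cells. The part of cell number in these counts was not tested.

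With GFI1B_5 in CRISPRa, 58 of 90 genes were outside the *TET2* range, and the mean absolute log2(FC) over them was 0.30, against 0.18 with GFI1B_6 and at most 0.090 with the 20 *TET2* sgRNAs. In CRISPRi the same sgRNA put 45 genes outside, at a mean absolute log2(FC) of 0.17. Its predicted off-target sites, 17, were the fewest of the 14, and their part in these changes was not tested.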
